A study of Mus musculus with 2 samples.

Results

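Cassette exons are internal exons that are joined into some transcripts of a gene and skipped in others. The 2704 exons described here are cassette exons of at least 52 nt with intermediate inclusion in adult mouse cortex, and they lie in 2076 genes. They were chosen from an exon table on the mm9 assembly. An exon was tested when it belonged to a single gene, both of its ends were joined to other exons by junctions carrying a flag named A, and at least 20 informative reads were present in each of 2 columns of junction reads, R1 and R2. Informative reads are the mean of the reads at both ends plus the reads that skip the exon, which join the outer sites of those junctions. Inclusion is the end mean as a percent of the informative reads, and a mean inclusion over R1 and R2 of 10% to 90% made an exon a member. Of 351001 exon entries, 349969 had a single gene, 147789 of those had flagged junctions at both ends, 111094 passed the read minimum, and 105833 of the latter were at least 52 nt long. The members are 2.56% of those 105833 exons, and their genes are 18.3% of the 11322 genes with such an exon. Inclusion chose the members, so its level is given below as a description with no test.

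The spliceosome recognises an exon by the splice sites at its edges, and RNA-binding proteins that sit in or near the exon raise or lower how often it is kept. An exon whose length is divisible by 3 can be kept or skipped without shifting the reading frame, whereas other lengths change every codon downstream. Some cassette exons instead bring in a stop codon that exposes the transcript to nonsense-mediated decay, the pathway that removes RNAs with a premature stop. Brain is known for a large repertoire of such exons in genes of receptors, the cytoskeleton and synaptic vesicles.

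Polyadenylated RNA was sequenced in 2 stranded libraries of paired 101 nt reads from cortex, which the labels call cortical plate, of adult C57BL/6J mice aged 8 weeks. Littermates of both sexes were pooled, and the labels give no allele, treatment or second condition. They form 1 group of 2 biological replicates, with separate biosamples under 1 donor entry. No source ties R1 or R2 to a replicate, so these columns were not assigned, and every difference between them compares 2 libraries and no conditions.

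The junction table held 39026825 reads in R1 and 38323842 in R2, and the mm10 tables held 91875460 expected counts in replicate 1 and 92939474 in replicate 2. Cortical markers were present in both replicates, such as Slc17a7, a vesicular glutamate transporter, at 572 and 479 TPM (transcript abundance scaled to a fixed library total), and the layer genes Cux2 at 37.7 and 37.3 and Tbr1 at 41.4 and 37.7. The 5 striatal markers were all higher in replicate 2, with summed levels of 100.8 and 302.2 TPM, and the 3 dentate granule cell markers were all lower there, at 12.1 and 4.12. Myelin markers, 3 of 3 higher in replicate 2, summed to 2583 and 3137 TPM. The part of these differences in the inclusion values was not tested. In bulk tissue, fewer cells of a type and less RNA per cell cannot be told apart.

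Exons that come as related pairs are printed first, because the pairs recur in the results. In each pair, capitals mark the bases that are identical at the same position, without gaps. The exons of Gria3, a subunit of AMPA-type glutamate receptors, encode the flip and flop segments and share 83 of 115 bases. The neighbouring exons of Mapt, the gene of the microtubule-binding protein tau, share 30 of 87 bases. The exons of Clta and Cltb, the clathrin light chains, lie in separate genes and share 37 of 54 bases. Positions are on mm9, and the bases are those of the matched GENCODE M21 transcripts on GRCm38.
Gria3 upstream exon, chrX:39007987-39008101, plus strand: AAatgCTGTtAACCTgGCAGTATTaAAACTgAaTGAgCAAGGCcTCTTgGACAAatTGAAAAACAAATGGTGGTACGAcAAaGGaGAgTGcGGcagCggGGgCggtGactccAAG
Gria3 downstream exon, chrX:39022678-39022792, plus strand: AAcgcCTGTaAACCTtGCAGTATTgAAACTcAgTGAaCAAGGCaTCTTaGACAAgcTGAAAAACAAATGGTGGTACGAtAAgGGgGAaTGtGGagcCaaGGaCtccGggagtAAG
Mapt upstream exon, chr11:104148437-104148523, plus strand: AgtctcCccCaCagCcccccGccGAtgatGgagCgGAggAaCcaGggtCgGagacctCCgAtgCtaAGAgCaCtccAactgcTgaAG
Mapt downstream exon, chr11:104151222-104151308, plus strand: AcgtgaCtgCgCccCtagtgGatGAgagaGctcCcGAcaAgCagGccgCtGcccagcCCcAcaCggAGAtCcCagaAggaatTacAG
Clta exon, chr4:44043087-44043140, plus strand: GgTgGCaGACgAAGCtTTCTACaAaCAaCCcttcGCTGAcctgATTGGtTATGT
Cltb exon, chr13:54698387-54698440, minus strand: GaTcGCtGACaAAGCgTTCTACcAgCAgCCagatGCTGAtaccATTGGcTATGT

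A second set shows coding exons with mean inclusion from 35.1% to 80.4% in genes of signalling and the membrane. Capitals mark the last 3 bases of each exon, which adjoin the downstream intron and are part of the splice donor. They do not mark a codon. These exons come from Grin1, the obligatory NMDA receptor subunit, Aplp2, a relative of the amyloid precursor, Camk2g, a calcium- and calmodulin-dependent kinase, and Dclk1, a microtubule-associated kinase.
Grin1 exon of 111 nt, chr2:25149958-25150068, minus strand: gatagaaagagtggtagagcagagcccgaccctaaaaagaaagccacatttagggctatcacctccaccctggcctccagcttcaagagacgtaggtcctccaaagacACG
Grin1 exon of 63 nt, chr2:25166863-25166925, minus strand: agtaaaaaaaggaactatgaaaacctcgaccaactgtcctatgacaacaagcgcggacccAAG
Aplp2 exon, chr9:30975146-30975313, minus strand: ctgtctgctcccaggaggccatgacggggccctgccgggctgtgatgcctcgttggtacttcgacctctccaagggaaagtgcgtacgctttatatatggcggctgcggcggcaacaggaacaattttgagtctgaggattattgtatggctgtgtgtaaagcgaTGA
Camk2g exon, chr14:21565014-21565082, minus strand: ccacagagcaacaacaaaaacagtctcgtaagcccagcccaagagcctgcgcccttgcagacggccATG
Dclk1 exon, chr3:55325772-55325845, plus strand: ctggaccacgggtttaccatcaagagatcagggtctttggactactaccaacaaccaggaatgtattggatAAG

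The last set shows exons that hold a stop codon in the matched transcript, which is annotated as a target of nonsense-mediated decay. Capitals mark that stop codon, and each exon is shown up to it. Hnrnpl and Srsf6 encode regulators of splicing. The Hnrnpl exon is 70 nt long and is shown for 59 bases, and the Srsf6 exon is 268 nt long and is shown for 152.
Hnrnpl exon, chr7:29602354-29602423, plus strand: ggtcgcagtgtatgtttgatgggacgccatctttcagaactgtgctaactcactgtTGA
Srsf6 exon, chr2:162758551-162758818, plus strand: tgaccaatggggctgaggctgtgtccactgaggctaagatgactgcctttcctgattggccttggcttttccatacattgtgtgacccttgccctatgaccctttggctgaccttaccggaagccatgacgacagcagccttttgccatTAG

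Most members lay toward the upper end of the window. Median inclusion was 67.5% in R1 (quartiles 36.8% and 83.3%) and 67.3% in R2 (37.2% and 82.8%). Mean inclusion fell between 70% and 90% in 1270 members (47.0%), between 50% and 70% in 490 (18.1%), between 30% and 50% in 403 (14.9%) and between 10% and 30% in 541 (20.01%). A single member was found in 1604 genes, 2 in 357, 3 in 86, 4 in 22, 5 in 4 and more than 5 in 3 genes. The count of 6 in 2210408F21Rik and in Iqce includes versions of an exon that overlap and share an end.

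**Figure D1:**
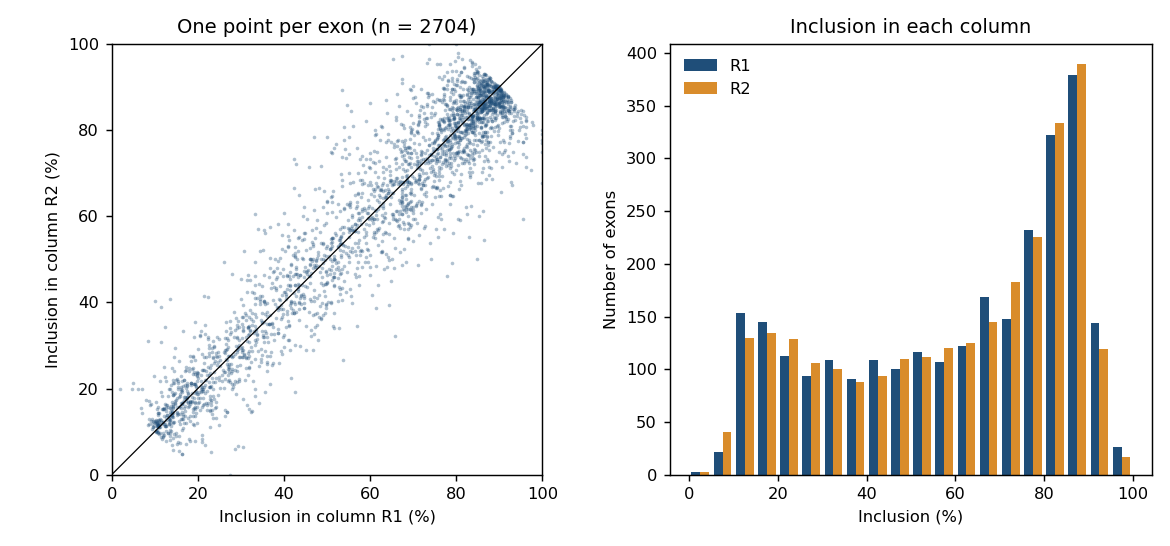
Left, inclusion (%) of each of the 2704 exons in column R1 (x axis) and column R2 (y axis), with the line of equality. Right, number of exons per 5% step of inclusion in R1 (blue) and R2 (orange); both columns peak toward 90%, with medians of 67.5% and 67.3%.

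At the edges of the window, Tia1 (119 nt) lay just inside 10% with 14.3% in R1 and 5.71% in R2, and Rims2 (78 nt) just outside with 11.3% and 8.65%. Near 90%, Mdn1 (134 nt) was inside with 80% and 100%, and Smap1 (81 nt) outside with 93.1% and 86.9%. The shortest length was represented by Dda1 at 52 nt, with 88.4% and 88.3%, against the 51 nt exon of Klc1 outside it, with 90.1% and 86.5%. At the read minimum, Akap9 entered with 33 and 20 informative reads, and 9430041J12Rik stayed out with 23.5 and 19.5. Beyond the read minimum stood 1381 further exons of at least 52 nt whose inclusion was in the window but whose reads were too few. In 366 members, R1 or R2 taken alone lay outside 10% to 90%.

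The columns gave nearly the same inclusion for deeply covered exons and diverged for shallow ones. The absolute difference between R1 and R2 had a median of 4.24 percentage points and a 90th percentile of 13.6, with a maximum of 36.3. It was under 5 points in 1507 members. For the 685 members with at least 200 informative reads in both columns the median was 2.41 points and the maximum 13.6, whereas for the 596 with under 50 in both the median was 7.60. Median informative reads were 97.5 in R1 and 96.5 in R2. An exact (Clopper-Pearson) 95% interval around 50% inclusion spans 27.2% to 72.8% at 20 reads and 46.9% to 53.2% at 1000 reads, a depth that 65 members reached in both columns. Reads are not independent molecules, so these intervals cover counting error only.

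Direct comparison of R2 with R1 called 1 member. Each exon was tested with a two-sided Fisher's exact test on end and skipping reads, with Benjamini-Hochberg adjustment over all 111094 tested exons. At an adjusted p under 0.05, 2 of all exons were called (0.0018%), 1 of them lower in R2 (0.0009%) and 1 higher (0.0009%), so no share can be read from the members' count. The other call was among intermediate exons under 52 nt (0.178% of those). The called member was an exon of 70 nt of Ncdn, which encodes neurochondrin, a neuronal protein of dendrites. Its inclusion was 24.6% in R1 and 18.6% in R2 (adjusted p = 0.000629, Fisher's exact test). The Ncdn exon holds the start codon of its matched transcript. Its downstream end carried 1382 reads in R1 and 1184 in R2, its upstream end only 13 and 22, and skipping reads numbered 2135 and 2638. Inclusion from the upstream end alone was 0.716%, and the call was absent with that end alone or with the lower of both ends.

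Without adjustment, 269 members (9.95%) had p under 0.05 in Fisher's exact test, against 0.762% of all exons and 11% of the 562 exons under 52 nt with intermediate inclusion. Most exons in the full set are near complete inclusion, where few reads can differ. Adjustment over that set is therefore strict for the members, and the low number of calls does not show equal inclusion. Of the members, 1314 were higher in R2 and 1381 in R1. A z statistic of the log odds called 1 member, and its version scaled to the spread among exons of 10% to 90% called none, with 128 members at an unadjusted p under 0.05. The nearest other members were Map4, a microtubule-associated protein gene, whose exon of 190 nt had 58.2% in R1 and 67.6% in R2 (adjusted p = 0.111, Fisher's exact test), and Rap1gap, an inhibitor of a small GTPase, with 33.1% and 42.3% (adjusted p = 0.162, Fisher's exact test). Neither passed the threshold.

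Receptor and channel genes held members at very different levels of inclusion. Of 77 genes of this list with a tested exon, 27 (35.1%, beside 18.3% of all genes) had a member. Its 38 members were 2.39% of its tested exons, beside 2.56% of all tested exons, and had a median inclusion of 55.0%, beside 67.2% over all members. The gene share also moves with the number of tested exons per gene, so both shares are given for each list, with no test. The Grin1 exon of 111 nt, which encodes a cassette of the receptor's intracellular tail, was included at 55.4% in R1 and 56.8% in R2 (mean 56.1% ± 0.951, SD, n = 2), on 1242 and 1157 upstream reads. The Grin1 exon of 63 nt, which lies in the extracellular part, was lower at 33.5% and 36.7%. These values put the tail cassette above the extracellular cassette in both columns. In Gria3, the upstream exon was included at 32.2% in R1 and 33.7% in R2, and the downstream exon at 80.8% and 78.6%. Sort1, a sorting receptor, included its exon of 99 nt at 16.5% and 13.7%.

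Among adhesion and synapse genes, 39 of 82 (47.6%) had a member, with a median of 48.1% over 57 members (3.85% of the tested exons). The Aplp2 exon of 168 nt, which encodes a Kunitz-type protease inhibitor domain, was included at 80.3% in R1 and 80.5% in R2, with 1733 and 1840 upstream, 1982 and 2110 downstream, and 457 and 480 skipping reads. The values are equal to within a fraction of a point on this depth. App, the amyloid precursor gene itself, had a member of 57 nt at 53.2% and 50.6%. That level is relative only to transcripts that use the sites joined to the exon. It rested on 237 and 241 upstream and 206 and 246 skipping reads, fewer than in Aplp2. Yet App had the higher gene level, with 586 and 544 TPM in replicates 1 and 2 against 216 and 199. The share of all App transcripts that keep the exon is thus not given by this value. Nrxn2, a presynaptic adhesion protein gene, included an exon of 90 nt at 24.6% and 27.4%. Nrcam, a cell adhesion gene of axons, had an exon of 153 nt at 18.3% and 16.3% and another of 156 nt at 86.6% and 86.0%. The member of Dlg4, which encodes the postsynaptic scaffold PSD-95, needs its ends in view. It was listed at 83.9% and 82.7%, but the upstream end had 3380 and 2904 reads and the downstream end 59 and 58, and the downstream end alone gave 15.4%. With flagged skipping only it was at 100%.

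The cytoskeleton list had a member in 49 of 86 genes (57.0%), with 94 members (4.84% of the tested exons) and a median of 50.7%. Of these members, 84 (89.4%) had a length divisible by 3, beside 50.4% of all members. The upstream Mapt exon was included at 17.6% in R1 and 18.0% in R2, on 984 and 961 skipping reads. The downstream Mapt exon was listed at 60.9% and 59.3%, but only relative to transcripts that use the site upstream of it. Dclk1, whose exon of 74 nt is not divisible by 3, was at 66.6% and 63.9%. Sptan1, a spectrin chain gene, kept an exon of 60 nt at 86.5% and 85.4%, and Add1, an adducin that caps actin, kept an exon of 87 nt at 18.7% and 17.0%. Ank2 encodes ankyrin-B, which ties membrane proteins to spectrin. It held the longest member, an exon of 6198 nt that encodes the insert of the giant neuronal form, at 33.0% and 32.9%. Its upstream end had 76 and 84 reads and its downstream end 447 and 502, and the upstream end alone gave 12.4%. Another Ank2 exon, of 183 nt, was at 23.3% and 28.6%. The other longest members were Rai1 (5527 nt, 90.5% and 85.7%), a transcriptional regulator, and Igfn1 (4485 nt, 84.6% and 77.8%, or 100% with flagged skipping only). In Rai1 the upstream end had 20 and 31 reads and the downstream end 151 and 101. Taken alone, these ends gave 71.4% and 92.3%.

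Vesicle traffic genes held the clathrin pair. A member was present in 41 of 86 genes (47.7%), and the 62 members (3.92% of the tested exons) had a median of 62.8%. Clta was included at 74.3% in R1 and 74.4% in R2, and Cltb at 84.6% and 82.6%, so Cltb lay above Clta in both columns. These exons encode the inserts that distinguish the neuronal forms of the light chains. The exon of 159 nt of Mff, a mitochondrial fission factor, was at 75.5% and 73.2%. Rtn3, an endoplasmic reticulum shaping protein, included an exon of 2124 nt at 17.6% and 16.9%.

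In kinase and signalling genes, 40 of 100 (40.0%) had a member, and the 63 members (3.18% of the tested exons) had a median of 48.6%. Camk2g, whose exon of 69 nt lies in the variable linker of the kinase, had 42.7% in R1 and 44.0% in R2. With skipping on flagged junctions only, its mean inclusion was 89.8% in place of 43.3%. Pip5k1c, a lipid kinase of synapses and adhesion sites, had an exon of 78 nt at 89.6% and 88.1%. Mink1, a kinase of the Ste20 family, had an exon of 87 nt at 57.8% and 52.2%. Rnf112, a brain ubiquitin ligase that was named for its depth rather than through a list, had 45.0% and 47.1%.

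The transcription and chromatin list had a member in 52 of 103 genes (50.5%), with a median of 57.1% over 78 members (4.06% of the tested exons). Zmynd11, a reader of histone marks, included an exon of 162 nt at 50.5% in R1 and 50.8% in R2, and Smarca4, the ATPase of a chromatin remodeller, included an exon of 99 nt at 16.8% and 17.3%. The splicing and RNA-binding list had a member in 47 of 110 genes (42.7%), with a median of 49.1% over 68 members (5.53% of the tested exons). The Rbfox1 exon of 53 nt was at 50.8% and 47.6%, the Pcbp2 exon of 93 nt at 63% and 64.3%, and the Ptbp1 exon of 78 nt, in the linker between RNA-binding domains, at 51.9% and 49.8%. Only 28 of the 68 members (41.2%) had a length divisible by 3.

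In myelin and glial genes, 11 members (2.15% of the tested exons) lay in 8 of 42 genes (19.0%, beside 18.3% of all genes), with a median of 25.2%. Mbp, the myelin basic protein gene, had the most informative reads of all members. Its exon of 78 nt was at 10.5% in R1 and 9.90% in R2, on 19645 and 31797 skipping reads, and its exon of 123 nt at 11.7% and 11.9%. Enpp2, which makes the lipid mediator lysophosphatidic acid, had an exon of 75 nt at 23.9% and 26.4%. Mag, a myelin adhesion protein, had an exon of 53 nt at 17.7% and 13.2% (unadjusted p = 0.000738, adjusted p = 1, Fisher's exact test). All skipping reads of that Mag exon were on unflagged junctions. Outside the lists, the noncoding RNA gene Meg3 included an exon of 81 nt at 17.2% in both columns on 18129 and 17885 skipping reads.

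**Figure D2:**
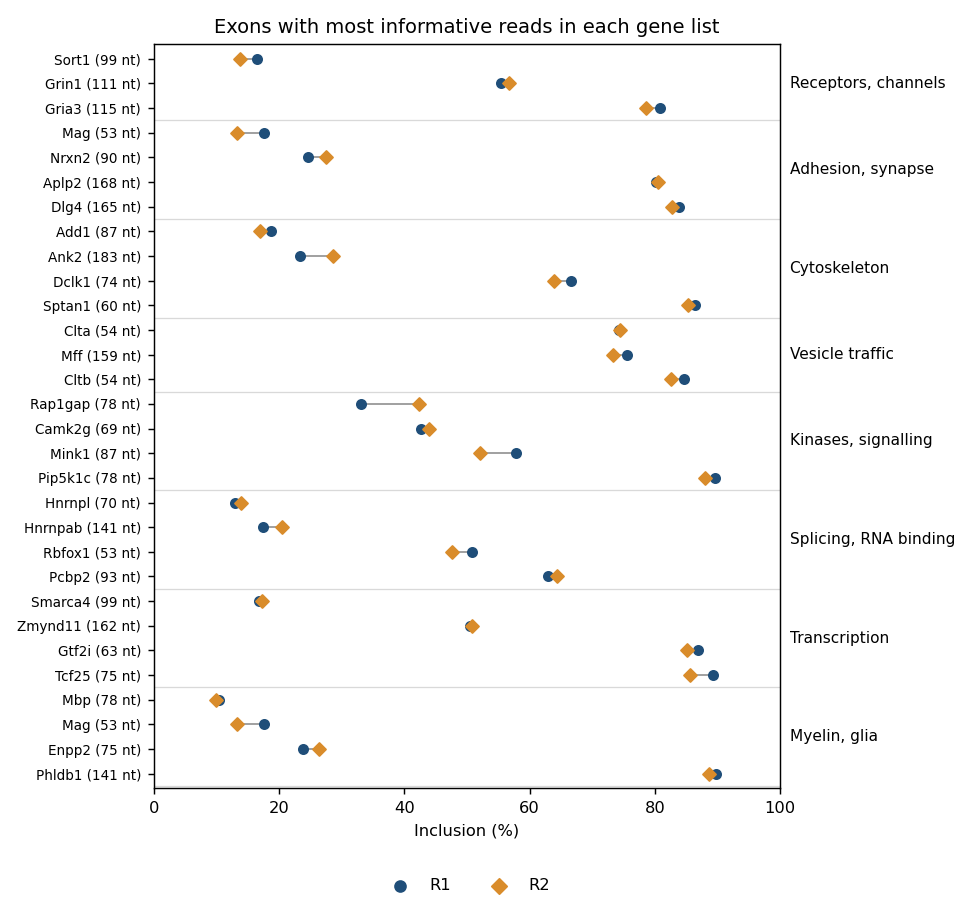
Inclusion (%) in column R1 (circles) and R2 (diamonds) of up to 4 exons with the most informative reads in each of 8 gene lists, 1 exon a gene, with exon lengths in nt; Mag is in 2 lists. Aplp2 (80.3% and 80.5%) and Clta (74.3% and 74.4%) nearly coincide, and Rap1gap (33.1% and 42.3%) has the widest gap.

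Exon length was not used by the rule beyond its minimum, and it is given beside that of nearly constant exons, those above 90% inclusion. Of the members, 1362 (50.4%) had a length divisible by 3. The same was true of 38.6% of 102342 exons of at least 52 nt with inclusion above 90%, of 39.3% of such exons in the members' own genes, of 43.6% of exons under 10%, and of 74.4% of shorter intermediate exons. These shares are descriptions, with no test. Members were shorter, with a median of 109 nt against 127 nt above 90% inclusion. Their introns were longer, with medians of 1985 nt upstream and 2020.5 nt downstream against 1301 and 1199 nt, and against 1468 and 1366 nt in the members' own genes. Exons under 10% inclusion came near the members, with a median of 111 nt and introns of 1756 and 1832 nt. Shorter intermediate exons had introns of 1814.5 and 1752 nt. Base composition hardly differed. Median GC content was 51.2% in members and 51.5% in exons above 90%, and the exon ended in G, the usual base at the donor site, in 79.6% and 80.5%.

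Where a member lies in its transcript was not used by the rule either. A structure was found for 2395 members (88.6%). The exon was coding in 1620 of these (67.6%), against 92.9% above 90% inclusion. It lay in the 5′UTR in 272 (11.4%, against 0.768%), held the start codon in 133 (5.55%, against 2.90%), held the stop codon in 171 (7.14%, against 0.802%), lay in the 3′UTR in 27, and had no coding sequence in 172. Matched exons under 10% inclusion were coding in 25.6%, in the 5′UTR in 21.5%, and held the start codon in 4.0% and the stop codon in 23.1%. For shorter intermediate exons these shares were 80.3%, 7.4%, 1.1% and 3.8%. Median inclusion was 74.7% for coding members, 75.4% for those with the start codon, 45.5% in the 5′UTR, 33.1% with the stop codon and 26.7% in the 3′UTR. Fam107a, an astrocyte-enriched gene, had the deepest 5′UTR member among those named, an exon of 184 nt at 14.1% in R1 and 13.7% in R2.

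Coding members were divisible by 3 in 57.5%, against 38.9% of coding exons above 90% inclusion. The share fell as inclusion rose. It was 78.2% of 206 coding members at 10% to 30% inclusion, 76.0% of 208 at 30% to 50%, 60.6% of 297 at 50% to 70% and 47.6% of 909 at 70% to 90%. The kind of skipping junction moved with it. In a split made after the values were seen, 1918 members had a skipping read on a flagged junction, and 786 (29.1%) had skipping only on junctions without the flag. Both sites of each of the 182235 flagged junctions were ends of annotated exons. Coding members with flagged skipping were divisible by 3 in 724 of 1064 (68.1%), and those without in 208 of 556 (37.4%). At 70% to 90% inclusion the shares were 61.5% and 33.3%, the latter below the share of coding exons above 90%. Median inclusion was 55.1% with flagged skipping and 82.3% without. Flagged junctions carried 90.6% of the members' skipping reads.

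**Figure D3:**
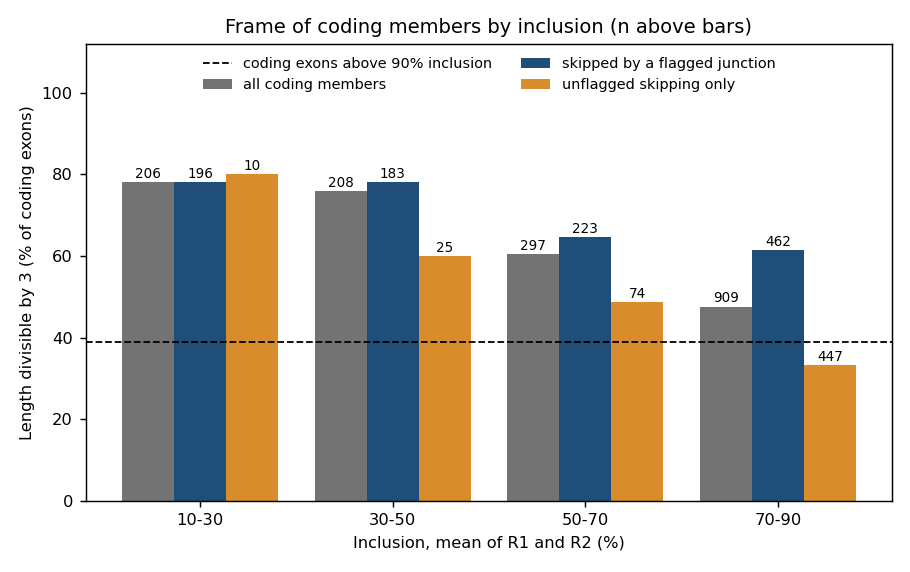
Percent of coding members with a length divisible by 3 (y axis) in 4 ranges of inclusion (x axis), for all coding members (grey), those skipped by at least 1 flagged junction read (blue) and those with unflagged skipping only (orange), with the number of exons above each bar. The dashed line is the 38.9% of coding exons above 90% inclusion; at 70% to 90% the bars stand at 47.6%, 61.5% and 33.3%.

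Exons tied to nonsense-mediated decay were mostly of low inclusion and recurred in splicing regulators. For 171 members (7.14% of those matched, against 0.900% above 90% inclusion) the best matched transcript was of the nonsense-mediated decay class, and 117 of these exons held its stop codon. Their median inclusion was 29.98%. They made up 18.6% of matched members at 10% to 30% inclusion, 8.55% at 30% to 50%, 6.06% at 50% to 70% and 2.52% at 70% to 90%. The class made up 27.1% of matched exons under 10% inclusion and 4.0% of shorter intermediate exons. Steady-state reads count the transcripts left after decay, so these levels are not rates of splicing. In the splicing and RNA-binding list, 20 of 61 matched members were of this class. Hnrnpl was included at 12.95% in R1 and 13.86% in R2, on 928 and 817 skipping reads. Srsf6 was at 25.5% and 21.8%, with 32 and 23 reads at the upstream end and 97 and 87 at the downstream end. Srsf2, a serine- and arginine-rich splicing factor like Srsf6, was at 11.0% and 9.46%, and Hnrnpdl at 15.5% and 21.4%. Luc7l and Luc7l2, related components of the splicing machinery, each had a member of 71 nt, at 39.1% and 50.3% and at 51.8% and 56.2%. Srsf3 went the other way, with an exon of 456 nt at 82.1% and 85.7%, but it rested on 11 and 9 skipping reads. Outside the lists, Snhg11, a host gene of small nucleolar RNAs, had an exon of 80 nt at 11.0% and 12.7% on 6417 and 4881 skipping reads.

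Genes with several members allowed neighbouring exons to be read together. After overlapping versions were removed, 162 pairs of neighbouring members in 146 genes had enough reads. For each pair, reads were counted that joined the exons to each other, or the upstream or the downstream exon alone to the outer sites. The joined share had a median of 44.9%. It was above 90% in 4 pairs, between 10% and 90% in 133 and below 10% in 25, of which 2 had no joined read. In 78 pairs the reads of exons used alone were on 1 of the exons, with at most 5% on the other. These counts describe junctions, and a joined read does not show the rest of its transcript.

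The Mapt exons followed such a one-sided pattern. Reads joined them to each other in 131 cases in R1 and 148 in R2, used the upstream exon alone in 71 and 78, the downstream exon alone in 2 and 4, and neither in 982 and 952. Rtn3 had the same form, with 392 and 320 joined reads, 185 and 196 for the upstream exon of 57 nt alone, and 1 and 0 for the downstream exon of 2124 nt alone. In Kctd17, an adaptor of a ubiquitin ligase, the side was reversed, with 869 and 956 joined reads, 2 and 2 for the upstream exon of 94 nt alone and 233 and 253 for the downstream exon of 75 nt alone. The start of that 75 nt exon had 1102 and 1209 reads, but its own end only 125 and 164. Most reads counted for it thus show use of its start and not of the whole 75 nt form. Bin1, a membrane-bending protein of endocytosis, also kept its downstream exon of 72 nt alone, in 379 and 405 reads, far more often than its upstream exon of 108 nt, in 3 and 4.

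Other pairs were rarely joined. The Gria3 exons were joined in 42 reads in R1 and 28 in R2, against 147 and 154 for the upstream exon alone, 339 and 291 for the downstream exon alone, and 5 and 0 for neither. The joined share was 7.96% in R1 and 5.92% in R2. Rgs7, a regulator of G protein signalling, used its upstream exon of 81 nt alone in 220 and 185 reads and its downstream exon of 78 nt alone in 301 and 317, with 3 and 1 joined reads and 125 and 78 that used neither. Adgrl2, an adhesion G protein-coupled receptor, had a joined share of 0.647% over both columns, but 609 reads in R1 and 613 in R2 used the upstream exon alone, 4 and 2 the downstream exon alone, and 88 and 81 neither. In Cadm1, a synaptic adhesion protein, no read joined the exons of 84 and 54 nt, while 342 and 290 used neither. The downstream end of the 84 nt exon had 326 and 301 reads, of which 89 and 75 counted as that exon alone. The leading junctions of the exons toward each other, over introns of 10559 and 7307 nt, both end between them. The lack of joined reads in Cadm1 thus does not show that the exons avoid each other.

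**Figure D4:**
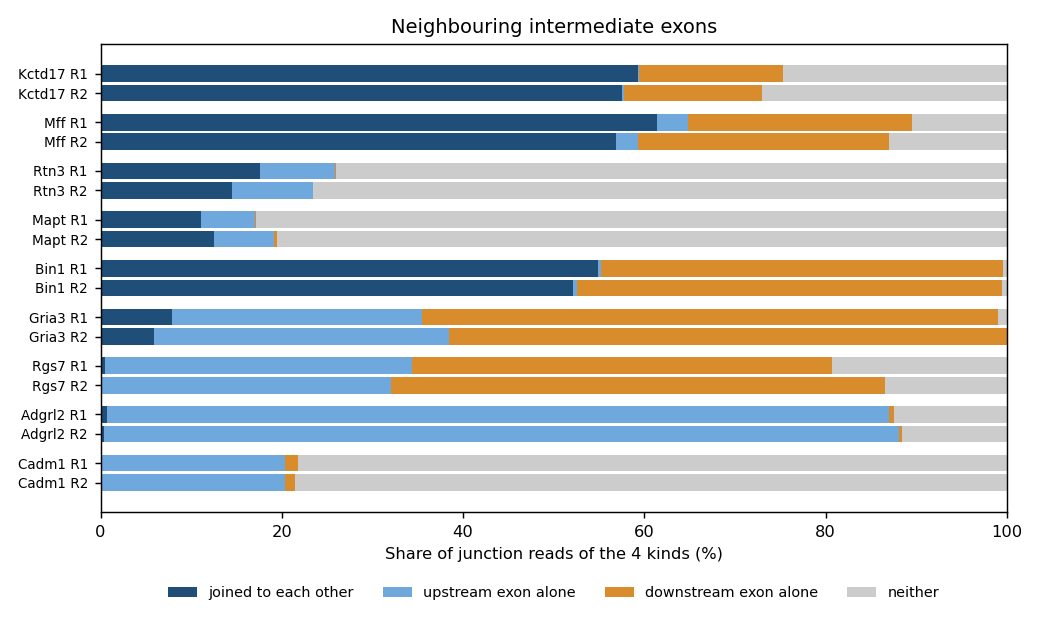
Share (%) of junction reads of 4 kinds for 9 pairs of neighbouring members, 1 bar for each column: joined to each other (dark blue), upstream exon alone (light blue), downstream exon alone (orange) and neither (grey). Gria3 and Rgs7 show mostly exons used alone on both sides, with 42 and 28 joined reads in Gria3, whereas Mapt and Rtn3 show almost no orange. Reads that join a Cadm1 exon to a site between the pair are not counted.

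Transcript estimates on mm10 gave a second view of the same libraries with another annotation. Transcripts listed for the exon on mm9 were looked up by identifier for 2587 members in genes of at least 1 TPM. They held a median of 42.2% of the gene's TPM in replicate 1 and 42.6% in replicate 2. Transcripts that contain the exon only in the mm10 annotation did not enter this share, and listed ones absent from mm10 added nothing. The rest of a gene's TPM can thus lie in unlisted transcripts that contain the exon, or in those that neither contain nor skip it. These parts were not counted. Among transcripts that contain or skip it, a ratio added after the data were seen, the containing ones held a median of 54.6% over 1964 members. That share rose with junction inclusion, from a median of 16.3% at 10% to 30% inclusion to 36.2%, 55.5% and 82.4% in the next ranges. Spearman's rho across these 1964 exons was 0.596, a description of exons that share libraries and reads. The estimates lay within 20 percentage points of junction inclusion for 1234 exons (62.8%), and 442 (22.5%) were at 5% or less or at 95% or more.

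For several of the exons printed above the estimates lay close together. Containing transcripts held 56.0% and 54.9% of this TPM for the Grin1 exon of 111 nt in replicates 1 and 2, and 73.8% and 73.1% for Clta, whose junction inclusion was 74.3% and 74.4%. For Hnrnpl they held 10.4% and 10.9%. Aplp2 was lower in the transcript estimates, at 56.5% and 56.8% against 80.3% and 80.5% by junctions, and Camk2g was at 69.1% and 70.6% against 42.7% and 44.0%, above the junction value from all skipping reads and below the 89.8% from flagged skipping only. The downstream Mapt exon was at 4.54% and 4.81%, where all transcripts that skip it count, also those without the upstream exon. Among members with at least 100 informative reads in both columns, the widest gaps upward were in Fhod3, Ganab and Pitpnb, whose exons were in all of the gene's TPM in both replicates at a mean junction inclusion of 17.7%, 16.2% and 11.1%. The widest gaps downward were in Hdac4, Ptpn5 and Smox, with shares of gene TPM of at most 0.762% and a junction inclusion of 89.2%, 88.5% and 89.9%. From the upstream end alone, inclusion was 3.76% in Ptpn5 and 16.7% in Smox. In Hdac4 the ends had 160 and 139 reads upstream and 132 and 149 downstream. Flagged skipping alone gave 100% for the Hdac4 exon, which widens its gap. These shares count only transcripts listed on mm9. Among transcripts that contain or skip the exon, containing ones held 14.86% and 20.35% in Smox, with no such value for Hdac4 or Ptpn5. The part of the matching in these gaps was not tested.

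**Figure D5:**
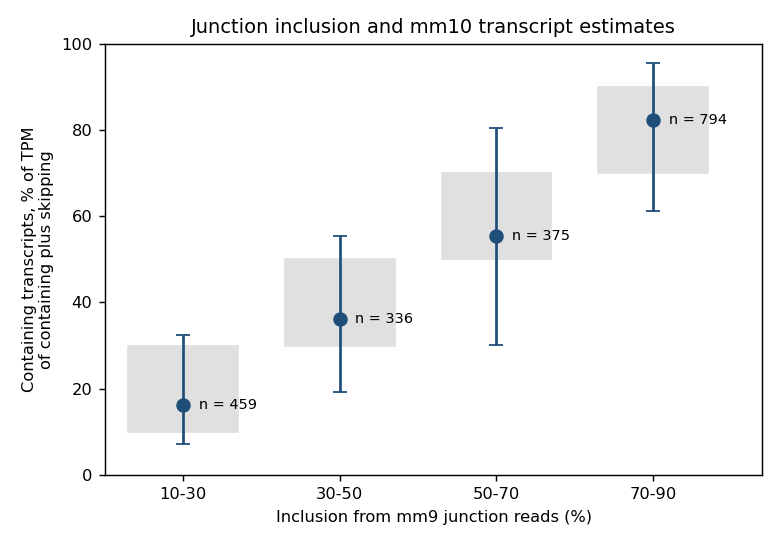
Median (points) and quartiles (bars) of the TPM share of mm10 transcripts that contain a member, among those that contain or skip it (y axis, %), in 4 ranges of inclusion by mm9 junction reads (x axis, %), with the number of exons; grey boxes mark each range on the y axis. Medians run from 16.3% to 82.4% and lie within the range of inclusion in each case, with wide quartiles.

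The mm9 exon table's own level, in RPKM, also rose with inclusion. It equals the summed RPKM of the transcripts that list the exon, within 1% for all 196190 exons of at least 0.1 RPKM in the first column and all 194915 in the other, so it is an estimate over transcripts and not a count over the exon. Relative to the median of the gene's exons above 90% inclusion, the log2 ratio (0.1 RPKM added) had a median of -0.63 over 2610 members, and 1898 (72.7%) were below 0. By range of inclusion the medians were -2.09, -1.30, -0.69 and -0.09. Spearman's rho with inclusion was 0.470 over these 2610 exons, which share libraries and gene estimates. It was 0.4915 for the mm10 share of gene TPM over 2587 exons. The ratio of containing and skipping transcripts gave 0.596 on a smaller set of 1964. Among members with at least 100 informative reads in both columns, the ratios set against inclusion were furthest below in Ncdn, at -8.75 and -8.06, Dlg4, at -6.43 in both columns, and Pld3, at -8.45 and -8.39, whose upstream end had 9 and 11 reads and alone gave an inclusion of 30.7%. They were furthest above in an unnamed gene, ENSMUSG00000090828, at 3.99 and 3.33, and in the Mbp exons of 78 nt, at 2.65 and 3.09, and of 123 nt, at 2.75 and 2.98. In these genes the reference itself was low. It was 0.12 and 0.18 RPKM in the unnamed gene and 3.77 and 4.39 in Mbp, whose gene level was 221 and 273 RPKM. The ratios thus do not show high use of these exons.

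Unequal ends bear on several members named here. Reads at the ends differed more than 2-fold in 771 members (28.5%), against 17.1% of exons above 90%, and 362 members (13.4%, against 9.03%) shared an end with another listed exon. For such exons, inclusion may mix use of the cassette with use of other first exons, last exons or splice sites, which was not tested. Among the 1802 members with neither feature, median inclusion was 68.5% and 53.1% had a length divisible by 3. Aplp2, Clta and the Grin1 exon of 111 nt had ends within 2-fold of each other, whereas Ncdn, Dlg4, Ptpn5 and Smox did not. The same held, among others, for Cltb, Pcbp2 and the downstream Gria3 exon, whose ends also differed more than 2-fold. From the upstream or the downstream end alone, inclusion was 77.2% or 87.2% in Cltb and 71.2% or 50.8% in Pcbp2. For the downstream Gria3 exon it was 69.5% or 84.8%.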

How the data were processed

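The authors deposited, on mm9 with the Ensembl 65 annotation per the file headers, junction counts in a pair of columns (R1, R2; a further column is their sum, tested on every entry) and RPKM of exons, genes and transcripts. On mm10 they deposited expected counts and TPM per replicate; expected counts were used for depth only. Aligner, counter and estimator are not given in the sources used here, nor is the meaning of the A flag. The samples form 1 group of 2 libraries.

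Inclusion, Fisher's exact tests and Benjamini-Hochberg adjustment were computed with Python 3.11.15, numpy 2.4.6, pandas 2.3.3 and scipy 1.17.1, on end means rounded to whole reads. The test was checked on simulated data. Structures came from GENCODE M21, matched by transcript identifier, exon number, exon count and the lengths of the exon and its neighbours; protein-coding transcripts, and among them coding placement, were preferred. The exon RPKM readout had been planned as reads over the exon; it is a sum over transcripts. Shares of gene TPM above 100%, by over 0.5 points in 3 members, were set to 100%.

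Members and gene lists were chosen with earlier results of these data known. Exons named by rule were the 12 with most informative reads, the 4 deepest per list, called exons, the 3 longest, threshold neighbours, the 3 genes with most members, and the 3 widest gaps in each direction of each level readout. Some of these are not reported here. Others (App, Bin1, Luc7l, Luc7l2, Map4, Nrcam, Ptbp1, Hnrnpdl, the Srsf genes, the second exons of Grin1, Gria3, Mapt and Rtn3, and the pairs) and the printed sequences were chosen after their values were seen. The pair definition was revised after a first version counted overlapping exons repeatedly. Alternatives were the reads at the ends, flagged skipping only, other read minimums and windows, single columns, and other tests.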

Additional observations from a re-analysis of the deposited data

How the results depend on the processing

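The number of members stayed within 1.5 times of 2704 under each setting tried, from 1891 with flagged skipping only to 3163 with a minimum of 10 reads. R1 and R2 alone gave 2861 and 2901, with 2513 and 2529 shared with the members. Median inclusion over the members (67.2%) was 63.2% from the upstream end, 66.9% from the downstream end, 57.5% from the lower end and 75.7% with flagged skipping only, and ranged from 67.3% to 67.5% over single columns. Members called between R1 and R2 (1 by Fisher's exact test) numbered 3 from the upstream end, 2 from the downstream end and 0 with the z statistic scaled to exons of 10% to 90%; the upstream and lower ends did not call that exon. The share divisible by 3 (50.4%) was 53.4% with a minimum of 50 reads, 54.4% at 20% to 80% inclusion, 53.0% with ends within 2-fold, 57.5% in coding members, and 56.4% and 35.8% with and without flagged skipping. The median log2 RPKM ratio (-0.63) was -0.90 without a pseudocount at a reference of at least 1 RPKM, and -0.61 and -0.58 for single columns. The median share of gene TPM (42.6%) was 34.1% at 10 TPM or more, 54.6% among containing and skipping transcripts, and ranged from 42.2% to 42.6% without either replicate. The coding split, the flag split, the scaled z statistic and the containing and skipping ratio were added after seeing the data. Of 284 values of 71 named exons under another choice of ends or skipping, 159 moved by more than the SD between columns, and 16 exons left the 10% to 90% window under at least 1 choice. The cause was not tested, except that fewer or other reads enter by construction. Depth limits shallow members most. No paired analysis was possible because the series has 1 group.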
